A study of Mus musculus with 16 samples.

Results

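The change from embryonic day 9.5 (E9.5) to E10.5 was followed in cells of the mouse yolk sac sorted as hemogenic endothelium (HE). The comparison takes 4 of the 16 RNA-seq libraries of the series, 2 at each stage. It covers the 12370 genes, of 33531 listed, with at least 1 FPKM (fragment counts divided by transcript length and by the library's mapped total) in at least 2 of these 4 libraries. Of them 74 were listed at 0 in at least 1 of the 4 libraries and at 5 FPKM or more in another. These were set aside, and the results below describe the other 12296.

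Hemogenic endothelium is the specialised endothelium from which blood cells bud in the embryo, and in the yolk sac it gives rise to the first waves of definitive blood progenitors. The transcription factor Runx1 is required for this step, in which Gfi1 helps to silence endothelial genes. A cell that leaves the vessel wall loses endothelial adhesion genes and gains surface proteins of blood cells such as CD41 and CD45. The yolk sac wall also holds mesoderm-derived stroma, an epithelium of visceral endoderm that secretes plasma proteins, and blood.

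Conceptuses came from superovulated B6C3F1 females, 3 weeks old, that were mated with males homozygous for the Runx1tm4Dow allele, a Runx1-GFP reporter, and were staged by somite count. Every library therefore comes from embryos that received the reporter allele from the sire. The libraries labelled HE were sorted as Runx1-GFP+ CD31+ kit lo/- CD41- CD45- cells, and the endothelial cells (EC) used here for comparison as Runx1-GFPneg CD31+ kit- CD41- CD45- cells. Yolk sac EC and HE of an embryo region around the aorta, each with 2 libraries per stage, serve as comparisons. The vitelline vessels stayed with the embryo, so the yolk sac libraries do not hold them. Whether replicates stem from separate litters or sorts is not in the labels. The p-values then measure the spread between the libraries of the series alone, and that spread may be technical.

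By FPKM, Runx1, whose GFP reporter defines the sort, stood above yolk sac EC at E9.5 but not at E10.5. The gate read the reporter and not this RNA. In replicates 1 and 2 of yolk sac HE, Runx1 stood at 5.81 and 8.10 FPKM at E9.5 and at 2.19 and 2.17 at E10.5. In yolk sac EC it was 2.37 and 2.09 at E9.5 and 2.60 and 2.04 at E10.5, so the E10.5 libraries labelled HE lay within the range of EC. Cldn5, which encodes a tight junction protein of endothelium, was 278 and 110 FPKM at E9.5 and 77.0 and 17.0 at E10.5 in the libraries labelled HE, against 302 to 483 in yolk sac EC. Pecam1, which encodes the CD31 of the gate, was 111 and 48.8, then 47.6 and 12.6, against 104 to 192 in yolk sac EC. Runx1 fell together with Cldn5 and Pecam1, and its level relative to them was not tested. Itga2b, which encodes CD41, was 49.3 and 27.4, then 10.7 and 8.12, although the gate left out cells with CD41 on the surface. Ptprc, which encodes CD45, lay between 0.0595 and 0.344 FPKM in the 4 libraries. The 2 E10.5 libraries are therefore called the libraries labelled HE below.

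The second E10.5 library stands apart. Correlations of log2 values were taken across the 13955 genes with at least 1 FPKM in at least 2 of the 16 libraries. The E10.5 pair had r = 0.939, against 0.976 for the E9.5 pair and 0.963 to 0.983 in the other 6 groups. Between the E10.5 libraries 1261 described genes lay at least 1 log2 unit apart, between the E9.5 libraries 383. Genes of cytoplasmic ribosomal proteins took 18.97%, 19.68% and 18.99% of the FPKM in the first 3 libraries, 14.39% in E10.5 replicate 2, and 17.4% to 28.5% in the 12 other libraries of the series. The number of reads is unknown. Steps between low FPKM values put E9.5 replicate 2 at 0.959 and E10.5 replicate 1 at 1.25 times the reads of E9.5 replicate 1, and gave no clear step for E10.5 replicate 2. Sums of FPKM were 620150 to 728010 per library, with 12036 to 12213 genes at 1 FPKM or more.

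Of 13955 genes fitted over all 16 libraries, limma called 283 (2.03%) between the stages at a Benjamini-Hochberg adjusted p under 0.05, 129 higher (0.924%) and 154 lower (1.1%) at E10.5. Among the 12296 described genes it called 272 (2.21%), 126 higher (1.02%) and 146 lower (1.19%). At least 2-fold changes were made by 108 of the rises and 91 of the falls. The described genes as a whole had a median difference of −0.16, and 3 other scalings of the libraries raised this median by 0.13 to 0.19 on the log2 scale. With them 292 genes were called higher and 83 lower (median-ratio scaling), 131 and 49 (libraries scaled to equal sums) or 260 and 106 (quantile normalization), in place of 126 and 146. Both E10.5 libraries lay above both E9.5 libraries for 1869 genes (15.2%) and below both for 4564 (37.1%). Of the described genes 159 had passed the filter through the E10.5 libraries alone, of which 39 were called higher, and 151 through the E9.5 libraries alone, of which 17 were called lower. The rises of C1qc, Myh11, Cebpa and Cldn15 named below are among the 39, and the fall of Gfi1 is among the 17.

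These calls depend on the 4 libraries in different measure. Without E10.5 replicate 2, 86 genes were called, 52 higher and 34 lower, of which 62 were among the 283. Without E10.5 replicate 1, 1778 were called, and without E9.5 replicate 1 only 27. With the 4 libraries alone in the fit none passed, and 1795 had an unadjusted p under 0.05. Of 56 called genes named by rule, 22 stayed called without E10.5 replicate 2, 48 without E10.5 replicate 1, 43 without E9.5 replicate 2 and 7 without E9.5 replicate 1. These 7, Col2a1, Col12a1, Calml3, Thbs1, Cebpa, Cryaa and Ppbp, were the ones among the 56 that passed in each of the 4 fits; the others were lost without E9.5 replicate 1. Differences below are E10.5 minus E9.5 means of log2(FPKM + 1) ± SE (n = 2 per stage). This scale understates the change of genes with low values. The SE draws on the spread within all 8 groups of the 16 libraries, so it does not measure the spread of these 4 alone. For Cldn5, with an SE of 0.56, E10.5 replicate 2 minus replicate 1 was −2.11.

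**Figure D1:**
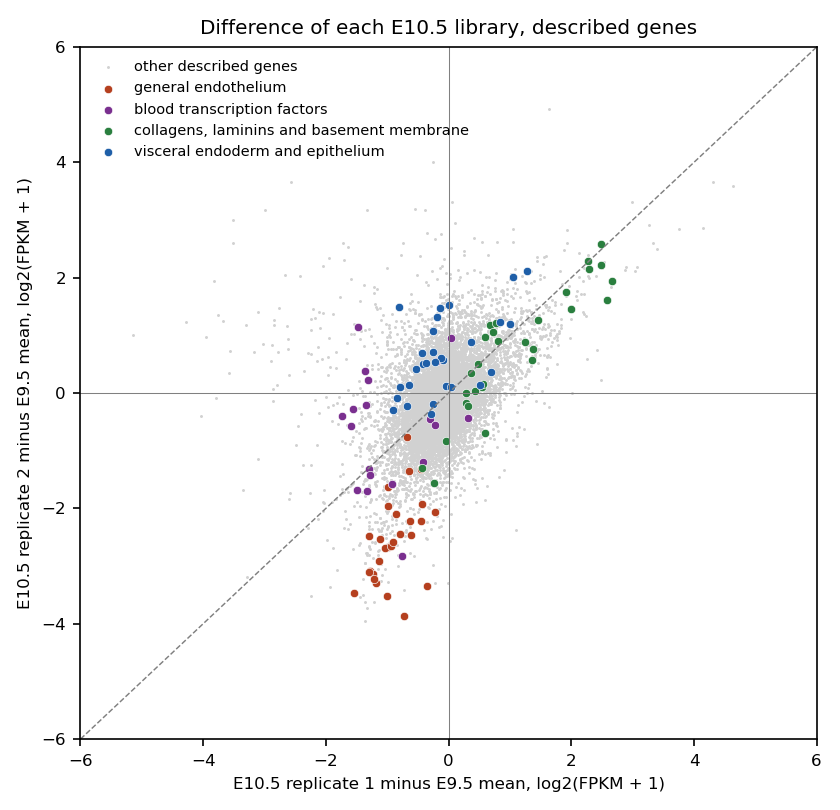
Difference of E10.5 replicate 1 (x axis) and of E10.5 replicate 2 (y axis) from the E9.5 mean, in log2(FPKM + 1), for each described gene; colours mark the members of 4 gene lists and the dashed line marks equal differences. General endothelial genes lie further down in replicate 2 (median −2.56) than in replicate 1 (−0.96), blood transcription factors further down in replicate 1 (−1.30 against −0.46), and collagens and laminins lie mostly above 0 in both.

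Of 19 described transcription factors of blood formation 5 fell at E10.5 and none rose. Among all described genes 1.19% were called lower and 1.02% higher, the shares to set beside each list below. The median difference of the list was −0.80, with −1.30 in E10.5 replicate 1 and −0.46 in replicate 2. Runx1 fell by 1.31 ± 0.21 (adjusted p = 0.0120), by the same amount in each E10.5 library (−1.30 and −1.31). Gfi1, the repressor that acts with Runx1, was 2.06 and 2.38 FPKM at E9.5 and 0.142 and 0 at E10.5 (−1.59 ± 0.34, adjusted p = 0.0373). The E10.5 values of Gfi1 lay within the range of yolk sac EC, 0 to 0.390.

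Gata2, a zinc finger factor needed for hematopoietic stem and progenitor cells, stood at 15.8 and 8.46 FPKM at E9.5 and at 4.04 and 2.88 at E10.5 (−1.51 ± 0.31, adjusted p = 0.0328). Lyl1, a helix-loop-helix partner of Lmo2 and relative of Tal1, was 35.1 and 31.9, then 13.1 and 11.8 (−1.35 ± 0.19, adjusted p = 0.00809). Mecom, a zinc finger factor of stem cells, was 4.83 and 3.47, then 1.71 and 0.715 (−1.24 ± 0.26, adjusted p = 0.0351). For each of these 3 factors both E10.5 libraries lay below both E9.5 libraries, as they did for 37.1% of the described genes. In yolk sac EC Lyl1 did not follow, at 40.0 and 28.4, then 40.9 and 42.1 FPKM, but the difference between the 2 stage changes missed the threshold (adjusted p = 0.139).

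Other members differed between the E10.5 libraries. Tal1 was 19.4 and 24.3 FPKM at E9.5, and 7.89 in E10.5 replicate 1 but 28.8 in replicate 2. Lmo2 was 39.5 and 28.2, then 9.28 and 25.2, and Ikzf1, the Ikaros factor of lymphoid and other blood cells, 10.9 and 8.44, then 2.83 and 22.6. None of these 3 was called. Spi1, which encodes PU.1 of myeloid cells, stood at 2.58, 2.95, 2.32 and 4.53 (0.19 ± 0.35, adjusted p = 0.788).

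A list of 19 genes enriched in hemogenic endothelium, which shares members with the list above, held 4 falls and no rise (median −0.75). Beside Runx1, Gfi1 and Gata2 this was Emb, the cell adhesion molecule embigin, at 111 and 90.3 FPKM, then 18.5 and 41.8 (−1.81 ± 0.33, adjusted p = 0.0226). Itga2b, which is expressed by the earliest blood progenitors and by megakaryocytes, fell by 1.87 ± 0.31 (adjusted p = 0.0132). Kit, the receptor of stem cell factor, was 5.66 and 3.59, then 1.66 and 1.75 FPKM without passing (−1.03 ± 0.35, adjusted p = 0.113). Without E10.5 replicate 2, Runx1 (adjusted p = 0.0566), Itga2b (0.0740), Gata2 (0.140), Gfi1 (0.136) and Mecom (0.160) were no longer called, while Lyl1 (0.0439) and Emb (0.00803) were. Lyl1 and Emb missed the threshold without E9.5 replicate 1 (0.0918 and 0.176).

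Of 28 genes of general endothelial identity 2 fell, none rose, and each of the 28 had a difference below 0. Of the 12296 described genes 7933 had a difference below 0. Both E10.5 libraries lay below both E9.5 libraries for 37.1% of the described genes and for 24 of the 28 endothelial genes. The median was −1.81, made of −0.96 in E10.5 replicate 1 and −2.56 in replicate 2. Their summed FPKM was 4068 and 1697 at E9.5 and 1360 and 437 at E10.5, so the E9.5 libraries also differed and E9.5 replicate 2 lay close to E10.5 replicate 1. In yolk sac EC the sums were 6996 and 3847, then 5531 and 4962. In bulk samples fewer cells of a type and less RNA per cell cannot be told apart.

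Sox18, an endothelial transcription factor of the SoxF family, was 117 and 45.3 FPKM at E9.5 and 24.4 and 5.65 at E10.5 (−2.50 ± 0.57, adjusted p = 0.0465). Fli1, an ETS family factor of endothelium and blood, was 29.1 and 14.1, then 7.70 and 2.81 (−1.89 ± 0.40, adjusted p = 0.0375). Neither was called without E10.5 replicate 2 (0.193 and 0.172). Cldn5 missed the threshold at −2.23 ± 0.56 (adjusted p = 0.0561), as did the VE-cadherin gene Cdh5, at 251 and 100, then 79.8 and 24.2 FPKM (−1.82 ± 0.53, adjusted p = 0.0784). The VEGF receptor gene Kdr stood at 145 and 52.0, then 41.9 and 12.6 (adjusted p = 0.0885), and the angiopoietin receptor gene Tek at 76.2 and 35.8, then 23.5 and 8.20 (adjusted p = 0.0515). For all 4, E10.5 replicate 2 was the lowest of the libraries.

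Of 18 arterial genes only Hey1, a Notch target, fell (7.39 and 6.0, then 2.78 and 1.47 FPKM; −1.33 ± 0.30, adjusted p = 0.0447), and their median was −0.88. Among 14 venous, sinusoidal and lymphatic genes none was called (median −1.80), with the hyaluronan receptor gene Lyve1 at 427 and 138, then 91.8 and 25.2 FPKM (adjusted p = 0.0714). Of these 14, both E10.5 libraries lay below both E9.5 libraries for 9 and above them for 3 (against 37.1% and 15.2% of all described genes). The 3 were Nr2f2, a factor of venous identity (13.4 and 12.9, then 21.5 and 17.8), the semaphorin and VEGF co-receptor gene Nrp2 (55.0 and 49.4, then 61.4 and 62.6) and Pdpn of lymphatic endothelium (25.7 and 32.2, then 32.3 and 52.0). None of 17 vascular growth factor receptors and ligands (median −1.02) or of 10 flow-response genes (median −0.97) was called. In yolk sac EC the medians of these 4 lists were 0.16, −0.24, −0.16 and 0.15.

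Several of the other largest falls were genes of no list. Gap43, a growth cone protein of axons, was 102 and 50.8 FPKM, then 14.3 and 5.36 (−2.88 ± 0.43, adjusted p = 0.00874). Igf1, a growth factor, was 28.6 and 9.28, then 3.92 and 1.08 (−2.44 ± 0.48, adjusted p = 0.0292). The lens crystallin gene Cryaa was 7.59 and 15.3, then 0.971 and 2.55 (−2.16 ± 0.33, adjusted p = 0.00948), and in yolk sac EC it was at most 0.110 at either stage. Eltd1, an adhesion receptor of vessels, fell by 2.13, the vesicle protein gene Vamp5 by 2.05, and the less studied Grrp1 by 2.49, Fam171a2 by 2.05 and Lrp11 by 2.02. The retinoic acid binding protein gene Crabp1, a member of the neural list, fell by 2.27 and was the single call among its 4 described members. The gene models Gm13456, Gm14136, Gm12999 and C330013J21Rik fell by 3.24, 2.31, 2.16 and 2.22. Of the 15 largest falls 4 were called without E10.5 replicate 2, 1 without E9.5 replicate 1, 6 with quality weights on the libraries and 12 under median-ratio scaling.

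Promoter windows are shown for 4 genes: Runx1, the gene of the reporter, Lyl1 and Itga2b, which also fell, and Cldn5, an endothelial marker that missed the threshold. Each holds the 250 bases before the annotated start of transcription, on the strand of the gene, from RefSeq on GRCm38.p6, a later build than the mm9 that the submitters' notes name. Capitals mark 6-base motifs found on either strand. The ETS motif was searched as AGGAAG, with CGGAAG counted as another form of it. For RUNX factors the search used TGTGGT, and its second form was TGCGGT. Motifs of GATA factors were taken as AGATAA, with TGATAA as an alternative spelling. The marked motifs do not overlap. The windows are Runx1 (first window, chr16:92826075-92826324, minus strand), Lyl1 (chr8:84701207-84701456, plus strand), Itga2b (chr11:102469884-102470133, minus strand) and Cldn5 (chr16:18776597-18776846, plus strand).
Runx1: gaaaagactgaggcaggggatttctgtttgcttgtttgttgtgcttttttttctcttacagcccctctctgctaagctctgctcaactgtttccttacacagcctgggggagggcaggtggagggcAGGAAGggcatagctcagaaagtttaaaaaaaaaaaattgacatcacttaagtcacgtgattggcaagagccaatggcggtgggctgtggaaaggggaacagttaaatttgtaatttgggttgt
Lyl1: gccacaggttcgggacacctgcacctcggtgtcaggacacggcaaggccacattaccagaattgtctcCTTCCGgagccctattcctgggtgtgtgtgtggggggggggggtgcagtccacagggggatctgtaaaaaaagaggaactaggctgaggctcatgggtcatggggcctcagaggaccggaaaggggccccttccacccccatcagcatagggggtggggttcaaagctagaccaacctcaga
Itga2b: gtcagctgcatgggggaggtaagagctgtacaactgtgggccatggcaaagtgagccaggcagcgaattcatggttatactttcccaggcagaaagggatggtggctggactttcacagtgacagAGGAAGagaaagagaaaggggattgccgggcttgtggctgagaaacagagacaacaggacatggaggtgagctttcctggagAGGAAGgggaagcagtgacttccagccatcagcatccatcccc
Cldn5: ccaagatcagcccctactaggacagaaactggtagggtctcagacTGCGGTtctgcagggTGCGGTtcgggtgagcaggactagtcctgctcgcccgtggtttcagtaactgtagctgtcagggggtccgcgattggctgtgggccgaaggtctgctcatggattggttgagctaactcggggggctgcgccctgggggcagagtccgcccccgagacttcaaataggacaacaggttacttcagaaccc

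The windows shown for Runx1 and Lyl1 held 1 ETS motif each, that of Itga2b 2 and that of Cldn5 2 RUNX motifs. The second Runx1 window (chr16:92697330-92697579, minus strand), which is not shown, held no ETS, RUNX or GATA motif. An ETS motif stood in 39.2% of all windows of that length in the table, in 45.9% of those of described genes, in 54.0% of those of genes called lower and in 34.9% of those of genes called higher. A RUNX motif stood in 18.6%, 17.0%, 19% and 22%, and a GATA motif in 16.6%, 9.31%, 7.14% and 13.8%. The table matched 8964 of the 12296 described genes, 92 of the 146 called lower and 92 of the 126 called higher. A match describes the letters and not a bound site.

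Id1 and Id3 fell. They encode inhibitors of helix-loop-helix factors and are known targets of BMP signalling in endothelium. Id3 was 176 and 83.5 FPKM at E9.5 and 31.0 and 11 at E10.5 (−2.64 ± 0.43, adjusted p = 0.0115), and Id1 was 88.7 and 56.3, then 22 and 12.9 (−2.0 ± 0.31, adjusted p = 0.00948). Both E10.5 libraries lay below both E9.5 libraries for each, as they did for 37.1% of the described genes. The inhibitory Smad gene Smad6, another target, stood at 32.9 and 28.6, then 24.8 and 22.9 (−0.35, adjusted p = 0.231). The 27 genes of the BMP and TGF-β list held those 2 falls and 1 rise, Tgfbi, which encodes a TGF-β-induced matrix protein (12 and 20.6, then 87.7 and 67.8; 2.22 ± 0.35, adjusted p = 0.0104). The list's median was −0.05 and turned to 0.05 to 0.09 under the 3 other scalings. Id1 and Id3 just missed the threshold without E10.5 replicate 2 (0.0596 and 0.0566).

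Of 20 Notch genes 2 fell, Hey1 and Mfng, a glycosyltransferase that modifies Notch receptors (30.1 and 12.8, then 7.70 and 2.45 FPKM; −1.92 ± 0.42, adjusted p = 0.0423), and the median was −0.42. Notch1 was 18.9 and 10.0, then 14.5 and 8.58 FPKM, so its stages overlapped, and the ligand gene Dll4 34.2 and 13.6, then 10.53 and 5.56 (adjusted p = 0.0922). Among 28 Wnt genes Sfrp1, a secreted inhibitor of Wnt ligands, rose from 1.41 and 3.20 to 31.0 and 18.2 FPKM (2.96 ± 0.39, adjusted p = 0.00520), and none fell (median 0.26).

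**Figure D2:**
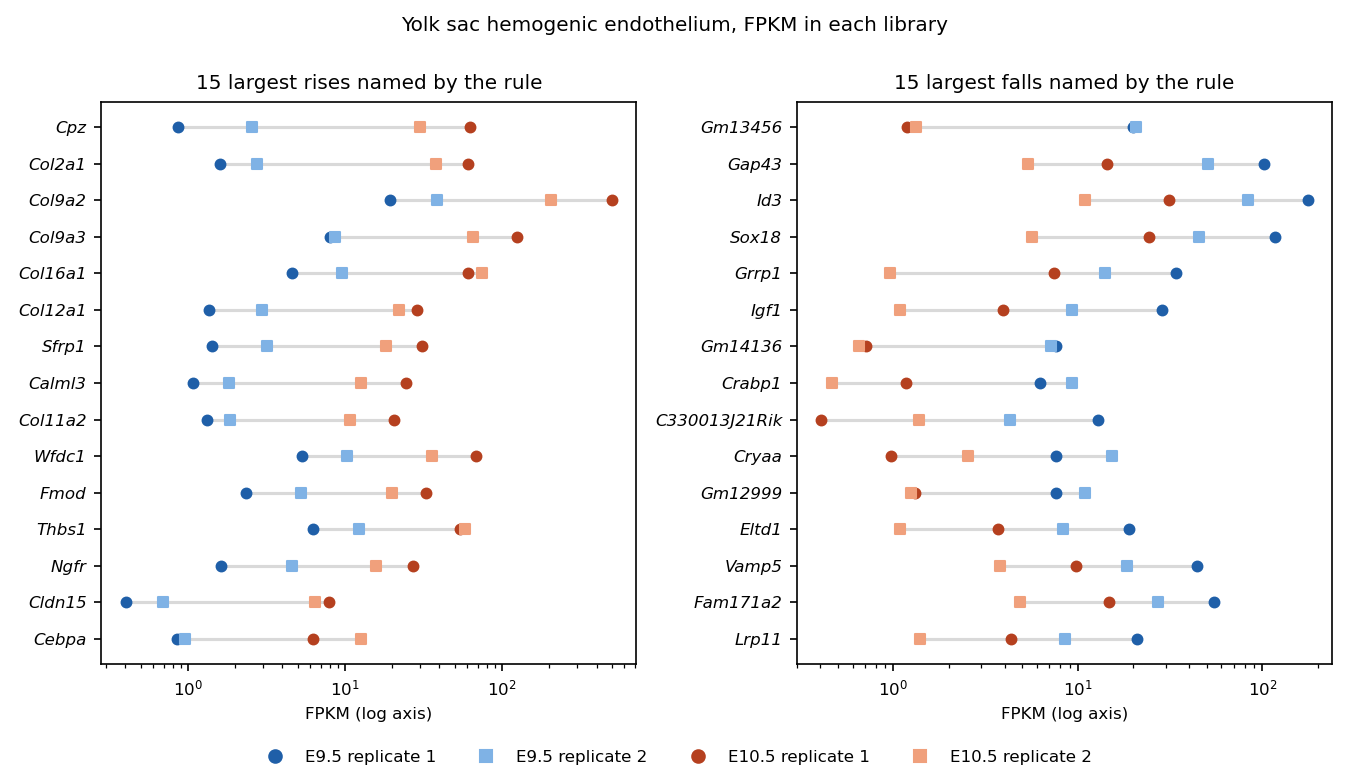
FPKM in each of the 4 yolk sac HE libraries (log axis) for the 15 largest rises and 15 largest falls among called genes with a mean of at least 5 FPKM at the higher stage. In each row both E10.5 libraries lie on the same side of both E9.5 libraries, which the choice of genes required, and among the rises Col2a1 goes from 1.60 and 2.75 to 60.9 and 38.3 FPKM.

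Fibrillar and fibril-associated collagens made up 6 of the 15 largest rises. Col2a1, the main fibrillar collagen of cartilage and notochord, was 1.60 and 2.75 FPKM at E9.5 and 60.9 and 38.3 at E10.5 (3.98 ± 0.31, adjusted p = 0.000214). Some of its partners on the same fibril rose too. Col9a2 was 19.5 and 38.6, then 502 and 206 (3.5 ± 0.55, adjusted p = 0.0104), Col9a3 8.03 and 8.61, then 125 and 65.6 (3.30 ± 0.55, adjusted p = 0.0140), and Col11a2 1.32 and 1.85, then 20.7 and 10.7 (2.63 ± 0.34, adjusted p = 0.00486). Col9a1 (15.6 and 27.4, then 65.3 and 36.5; adjusted p = 0.235) and Col11a1 (21.1 and 39.8, then 138 and 97.5; adjusted p = 0.0653) did not pass. In all 6 the first E10.5 library was the highest of the 4.

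The somite and cartilage list, to which 5 of these 6 belong, held 3 rises among its 10 described members (median 0.91). Of the other 5 described members, none of which was called, both E10.5 libraries lay above both E9.5 libraries for 3 and below them for 2 (against 15.2% and 37.1% of all described genes). The 3 were Sox5 (2.46 and 3.93, then 4.24 and 6.75 FPKM; adjusted p = 0.422) and Sox6 (2.57 and 4.47, then 5.57 and 6.08; adjusted p = 0.270), partners of Sox9 in cartilage, and the matrix gene Matn4 (0.897 and 1.24, then 1.52 and 1.63; adjusted p = 0.463). The 2 were the somite factor gene Tcf15 (3.16 and 4.05, then 1.5 and 0.107; adjusted p = 0.0552) and Hapln1, which links hyaluronan and proteoglycans (31.5 and 32.2, then 30.8 and 21.7; adjusted p = 0.320). Several list members were too low to be described. Sox9, the factor that drives Col2a1 in cartilage, was 0.565 and 1.22 FPKM, then 0.547 and 0.933. The cartilage proteoglycan gene Acan was at most 0.0159 FPKM in the 4 libraries, and the cartilage matrix gene Matn1 0.541 and 0.570, then 0 and 0. The somite factors Pax1 and Pax9 were at most 0.0839, and Myod1 of muscle was at 0 in all 4. Summed over the list, FPKM was 109 and 167, then 937 and 482.

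Other matrix genes rose beside them. Col16a1 was 4.63 and 9.53 FPKM, then 60.4 and 75.0 (3.15 ± 0.44, adjusted p = 0.00677), and Col12a1, which coats fibrils, 1.36 and 2.98, then 28.6 and 22 (3.09 ± 0.34, adjusted p = 0.00224). Thbs1, the matricellular protein thrombospondin 1, was 6.27 and 12.3, then 54.1 and 57.9 (2.53 ± 0.31, adjusted p = 0.00303), and the 2 E10.5 libraries lay close together. Tnc, which encodes tenascin C, was 25.3 and 39.7, then 158 and 143 (2.21 ± 0.35, adjusted p = 0.0106). Fmod, a small proteoglycan that binds collagen, rose by 2.54 (adjusted p = 0.0351). Cpz, a carboxypeptidase that binds Wnt ligands, had the largest rise, from 0.866 and 2.55 to 62.8 and 29.8 (4.11 ± 0.67, adjusted p = 0.0120).

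Among 29 genes of collagens, laminins and basement membrane 4 rose and none fell (median 0.90). They were Thbs1, Tnc, Col6a3 (15.2 and 27.5, then 120 and 99.5; adjusted p = 0.0456) and Col5a2 (108 and 149, then 352 and 308; adjusted p = 0.0487). The basement membrane collagens Col4a1 (395 and 250, then 382 and 278) and Col4a2 (213 and 140, then 211 and 173) did not pass, and neither did the laminin gene Lamc1 (65.6 and 77.6, then 92.7 and 90.6). The stages overlapped for Col4a1 and Col4a2.

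None of 13 described mesenchyme genes was called, although 11 had a difference above 0 and the median was 1.14. Of the 12296 described genes 4363 had a difference above 0. Col1a2, a subunit of type I collagen, was 461 and 817 FPKM, then 2982 and 3015 (2.29 ± 0.69, adjusted p = 0.0889), and the receptor gene Pdgfra 2.93 and 5.31, then 12.9 and 8.59 (adjusted p = 0.134). The summed FPKM of this list was 1539 and 2642 at E9.5 and 7622 and 6057 at E10.5, while Prrx1 of limb and other mesenchyme was at most 0.730. It was 503 and 2167, then 2273 and 2207, in yolk sac EC. The mesenchymal sum left out Col1a1, which was set aside, and included Col1a2 and the collagen gene Col3a1. It is therefore in part a sum of collagen genes and no separate measure of mesenchyme. Its part in the rise of the collagen genes was not tested. Of 11 smooth muscle genes Myh11, the smooth muscle myosin, rose (0.347 and 0.378, then 2.02 and 1.36; 0.97 ± 0.21, adjusted p = 0.0396). Their sum overlapped between the stages, at 744 and 1140.5, then 1519 and 936.

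The other large rises were of diverse kind. Calml3, a calmodulin-like protein, was 1.08 and 1.83 FPKM, then 24.5 and 12.7 (2.94 ± 0.33, adjusted p = 0.00224). Wfdc1, a secreted protease inhibitor, rose by 2.58 (adjusted p = 0.0415), the neurotrophin receptor gene Ngfr by 2.51 (adjusted p = 0.0284) and the tight junction gene Cldn15 by 2.40 (adjusted p = 0.00897). Of the 15 largest rises 12 were called without E10.5 replicate 2, all except Wfdc1, Fmod and Ngfr. Without E9.5 replicate 1 this was 5, with quality weights 9 and under median-ratio scaling 15.

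The promoter of Col16a1 (chr4:130047590-130047839, plus strand, GRCm38.p6) is shown as an example of a collagen gene among the largest rises. Capitals mark the single GC box (GGGCGG on either strand), and neither of the SOX motifs searched (ACAATG and ACAAAG) stands in it.
Col16a1: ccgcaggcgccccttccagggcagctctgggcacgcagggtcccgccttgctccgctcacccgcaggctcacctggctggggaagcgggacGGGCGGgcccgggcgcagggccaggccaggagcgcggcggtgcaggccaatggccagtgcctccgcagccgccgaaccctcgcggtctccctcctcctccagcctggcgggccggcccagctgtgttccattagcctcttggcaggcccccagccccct

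A GC box stood in 55.0% of the windows of genes called higher, 58.6% of those of described genes and 32.7% of all windows. A SOX motif stood in 12.8%, 17.2% and 25.2%.

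Of 29 described visceral endoderm genes Trf, the iron carrier transferrin, rose (199 and 152, then 362 and 701 FPKM; 1.53 ± 0.29, adjusted p = 0.0251), none fell and the median was 0.23. The E10.5 libraries differed, with a median of −0.22 in replicate 1 and 0.54 in replicate 2. The list's summed FPKM was 10513 and 8905, then 9440.3 and 15270. Hnf4a, a factor of this epithelium, was 18.2 and 15.7, then 14.1 and 36.8, and Afp, the fetal plasma protein α-fetoprotein, 981 and 953, then 2341 and 4201 (1.70 ± 0.89, adjusted p = 0.275). Cebpa, a factor of liver, fat and myeloid cells, rose from 0.857 and 0.962 to 6.30 and 12.6 (2.38 ± 0.27, adjusted p = 0.00224).

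Few blood cell genes were called. Of 13 megakaryocyte and platelet genes Ppbp, a platelet chemokine, rose (0.723 and 1.08, then 7.76 and 7.55 FPKM; 2.19 ± 0.26, adjusted p = 0.00282), Thbs1 rose as given above, and Itga2b fell (median 0.49). Pf4, another platelet chemokine, was 15.8 and 25.4, then 46.1 and 50.6 without passing (adjusted p = 0.199). Of 20 macrophage genes 9 were described, C1qb and C1qc among them through the E10.5 libraries alone, and the list's median was 0.52. Of the 9, 6 had a difference above 0 and 3 below it, among the latter Mrc1 at −2.10 (adjusted p = 0.0976). Of these 9, 2 rose, the receptor gene Csf1r (1.30 and 0.978, then 3.34 and 3.98; 1.13 ± 0.21, adjusted p = 0.0239) and the complement gene C1qc (0.0288 and 0.384, then 3.11 and 1.11; 1.31 ± 0.28, adjusted p = 0.0413). Each was called in 1 of the 4 fits that left out a yolk sac HE library, Csf1r without E10.5 replicate 1 (0.0138) and C1qc without E10.5 replicate 2 (0.0109).

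None of 15 general blood cell genes was called (median −0.17). Of 16 erythroid genes the transferrin receptor gene Tfrc fell (47.6 and 76.8, then 17.0 and 21.6 FPKM; −1.61 ± 0.37, adjusted p = 0.0482). It was called in none of the 4 fits that left out a yolk sac HE library (0.0610 to 0.148). The embryonic globin gene Hbb-bh1 was 8809 and 18617, then 6302 and 13943 FPKM, so replicates differed more than stages. The erythroid sum was 26322 and 54877, then 22432 and 46950. The list's median was −0.95 in E10.5 replicate 1 and 0.16 in replicate 2.

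2 genes of the Lin28 and let-7 axis fell among 12 (median −0.28). Hmga2, a chromatin protein of fetal cells that let-7 represses, was 35.1 and 26.8 FPKM, then 9.88 and 7.18 (−1.75 ± 0.26, adjusted p = 0.00859), and Lin28b, which blocks let-7 maturation, 4.32 and 3.47, then 0.786 and 1.44 (−1.22 ± 0.26, adjusted p = 0.0351). Lin28b was called in none of the 4 fits that left out a yolk sac HE library (0.0511 to 0.246), and Hmga2 was not called without E10.5 replicate 2 (0.0552). Lin28a was 64.0 and 78.8, then 30.3 and 50.4 (−0.85, adjusted p = 0.132). Of 32 cell cycle genes Ccnd1, which encodes cyclin D1, fell (44.2 and 38.9, then 24.9 and 16.5; −1.0 ± 0.17, adjusted p = 0.0151) and the inhibitor gene Cdkn1c rose (166 and 191, then 372 and 329; 0.97 ± 0.15, adjusted p = 0.00948). Cdkn1c was also the single call among 17 imprinted growth genes. The cell cycle median was −0.27.

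Of 18 described Hox genes Hoxb2 fell (15.5 and 10.9, then 6.31 and 4.72; −1.12 ± 0.21, adjusted p = 0.0242), and the median was −0.43. Members of the same cluster had lower values without passing, such as Hoxb4 (8.88 and 3.89, then 2.56 and 0.958) and Hoxb5 (9.15 and 4.54, then 2.77 and 0.498). Hoxc8 was 16.2 and 26.5, then 39.5 and 28.0 (adjusted p = 0.486). No gene was called among 18 of cholesterol synthesis, 22 of glycolysis and hypoxia, 22 of interferon response and antigen presentation, 17 of tissue dissociation response or 6 of germ and pluripotent cells. Their medians were −0.27, −0.25, −0.23, −0.07 and 0.39, and that of the dissociation genes turned to 0.05 to 0.12 under the 3 other scalings.

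**Figure D3:**
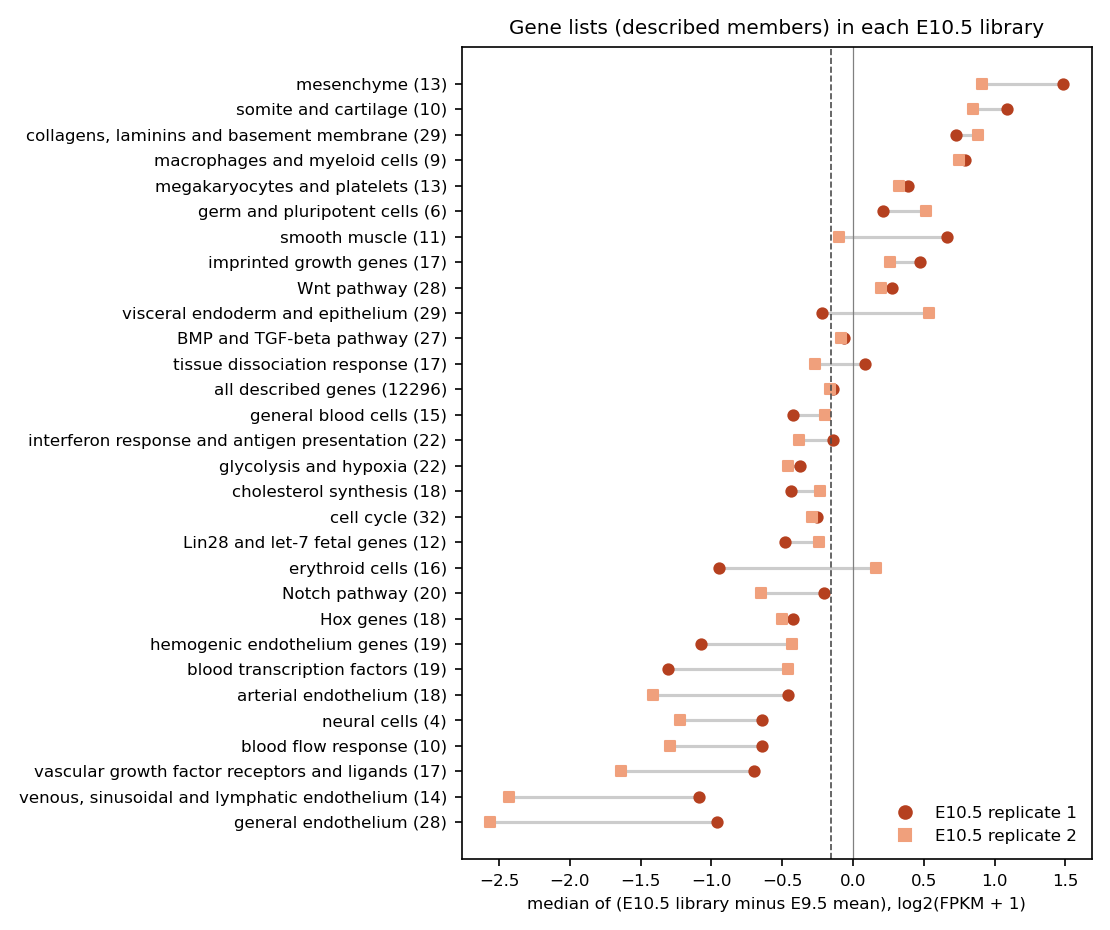
Median difference of each gene list from the E9.5 mean, in log2(FPKM + 1), given for E10.5 replicate 1 (circles) and replicate 2 (squares); numbers in brackets count the described members, and the dashed line marks the median of the described genes at −0.16. General endothelium stands lowest in replicate 2 at −2.56 and mesenchyme highest in replicate 1 at 1.49, while visceral endoderm and erythroid genes lie on opposite sides of 0 in the 2 libraries.

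The E10.5 libraries shared part of their change. Relative to the E9.5 mean, 362 genes were at least 1 log2 unit higher and 450 lower in replicate 1, and 683 and 977 in replicate 2. Both libraries held 181 of these higher and 201 lower, and 55 genes were that far from E9.5 in opposite directions. Among genes at no 0 in the 4 libraries, replicate 2 was lower than replicate 1 most for Hist1h2ag, Gm17104, Icam2, BC002163, Emcn, Dnaic1, Fxyd5 and Gm13008. Icam2, an endothelial adhesion gene, was 140 and 57.0 FPKM at E9.5, 53.4 in E10.5 replicate 1 and 5.23 in replicate 2. The 8 largest differences the other way were all ribosomal protein pseudogenes or gene models, with Rps27a-ps2 at 9.15, 23.5, 0.378 and 126 FPKM and Rpl39-ps at 91.5, 115, 1.92 and 207. Such near copies share reads with their parent genes; the sources used here do not state how such reads were assigned.

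Genes listed at 0 in at least 1 of the 4 libraries and at 5 FPKM or more in another were treated apart by rule. The cause of these zeros was not tested. Of the 74 set aside, 11 were at 0 in both E10.5 libraries only, 38 in E10.5 replicate 1 only, 16 in E10.5 replicate 2 only and 9 in an E9.5 library, and 54 were gene models, pseudogenes or small RNAs. Col1a1, the other subunit gene of type I collagen, was listed at 1034 and 1698 FPKM at E9.5 and at 0 in both E10.5 libraries, where its partner Col1a2 stood at 2982 and 3015. Igf2 was listed at 2209.5, 2577, 4552 and 0, and Stard7, a gene used by most cells, at 30.8, 32.3, 0 and 32.4. limma called 8 of the 74 (10.8%), each with a 0 in at least 1 E10.5 library. In some of them the other E10.5 library was low too, as for Ly6h (9.02 and 3.94, then 0.697 and 0). How far these calls rest on the zeros was not tested.

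The stage change was set against that of yolk sac EC, which shares no library with it. Of the 126 genes called higher in the libraries labelled HE, 122 had a difference above 0 in EC, and 49 were called higher there (0.903% of all genes fitted were). Of the 146 called lower, 124 were below 0 in EC and 9 were called lower (0.344% of all). The median stage change in EC over the described genes was −0.12, so a difference below 0 was common there. The rises had a median of 1.42 in HE and 1.00 in EC, the falls −1.17 and −0.35. As these genes were chosen by their call in HE, smaller medians in other populations are in part built in. Across the described genes the differences correlated with r = 0.429, over genes that are not independent replicates. Col2a1 rose in EC too, from 1.30 and 1.48 to 13.7 and 12.3 FPKM (2.55, adjusted p = 0.00251), and so did Ppbp (2.29, adjusted p = 0.00205), Cebpa (2.46, adjusted p = 0.00201) and Trf (2.43, adjusted p = 0.00232).

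The direct test of the difference between the 2 stage changes called 1 of 13955 genes (0.00717%), Col1a1, which is set aside for its zeros, and 1315 had an unadjusted p under 0.05. For Runx1 the difference was −1.34 ± 0.30 (adjusted p = 0.411), for Cldn5 −2.53 ± 0.79 (adjusted p = 0.448), for Id3 −2.14 ± 0.60 (adjusted p = 0.448) and for Col2a1 1.43 ± 0.44 (adjusted p = 0.448). The changes of these genes are thus not shown to differ from those in EC. Without E10.5 replicate 1 of the libraries labelled HE, 239 genes passed this test.

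In HE of the embryo region 5 of the 126 rises were also called higher there (0.967% of all genes fitted were) and 4 of the 146 falls lower (0.494% of all), with medians of 0.15 and −0.05. Runx1 fell in both, in embryo HE from 21.5 and 15.9 to 3.74 and 3.13 FPKM (−2.14, adjusted p = 0.000739), and so did Gfi1 (31.9 and 19, then 9.42 and 4.21; −1.80, adjusted p = 0.0209) and Emb (−1.54, adjusted p = 0.0471). For Runx1 the stage changes of the 2 sites differed by 0.83 ± 0.30 without passing (adjusted p = 0.174). In embryo HE the median of general endothelial genes was 0.19, and Cldn5 was 225 and 247, then 464 and 380 FPKM. The difference of Cldn5 between the sites was −3.06 ± 0.79 (adjusted p = 0.0914).

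The test of that difference called 82 of 13955 genes (0.588%), 29 higher (0.208%) and 53 lower (0.38%) in the yolk sac. Thbs1 led the positive side at 3.27 ± 0.44 (adjusted p = 0.00987), with embryo HE at 8.53 and 8.01, then 4.12 and 5.07 FPKM. Col11a2 (2.81), the transcription elongation gene Tcea3 (2.79), Calml3 (2.76), Npnt (2.70) and Col2a1 (2.70 ± 0.44, adjusted p = 0.0245) came next. Npnt, which encodes the integrin ligand nephronectin, was 7.55 and 10.3, then 23.8 and 25.1 in the yolk sac and 18.4 and 26.2, then 8.66 and 7.66 in the embryo. On the negative side Myog, the muscle factor myogenin, was 8.13 and 12.1 FPKM in embryo HE at E10.5, at most 0.303 at E9.5, and at most 0.0539 in yolk sac HE (−3.10 ± 0.29, adjusted p = 0.00136). The germ cell gene Dppa5a (−3.67) stood at 13.0 and 8.08 FPKM in E10.5 embryo HE and at most at 0.845 in yolk sac HE. Mylpf, a fast muscle myosin gene that was set aside for its zero, had a difference of −4.83, with embryo HE at 2.65 and 3.73, then 18.3 and 29.4 FPKM and yolk sac HE at 7.24 and 5.4, then 1.21 and 0. The count was 1242 without E10.5 replicate 1 of the libraries labelled HE and 35 without replicate 2.

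**Figure D4:**
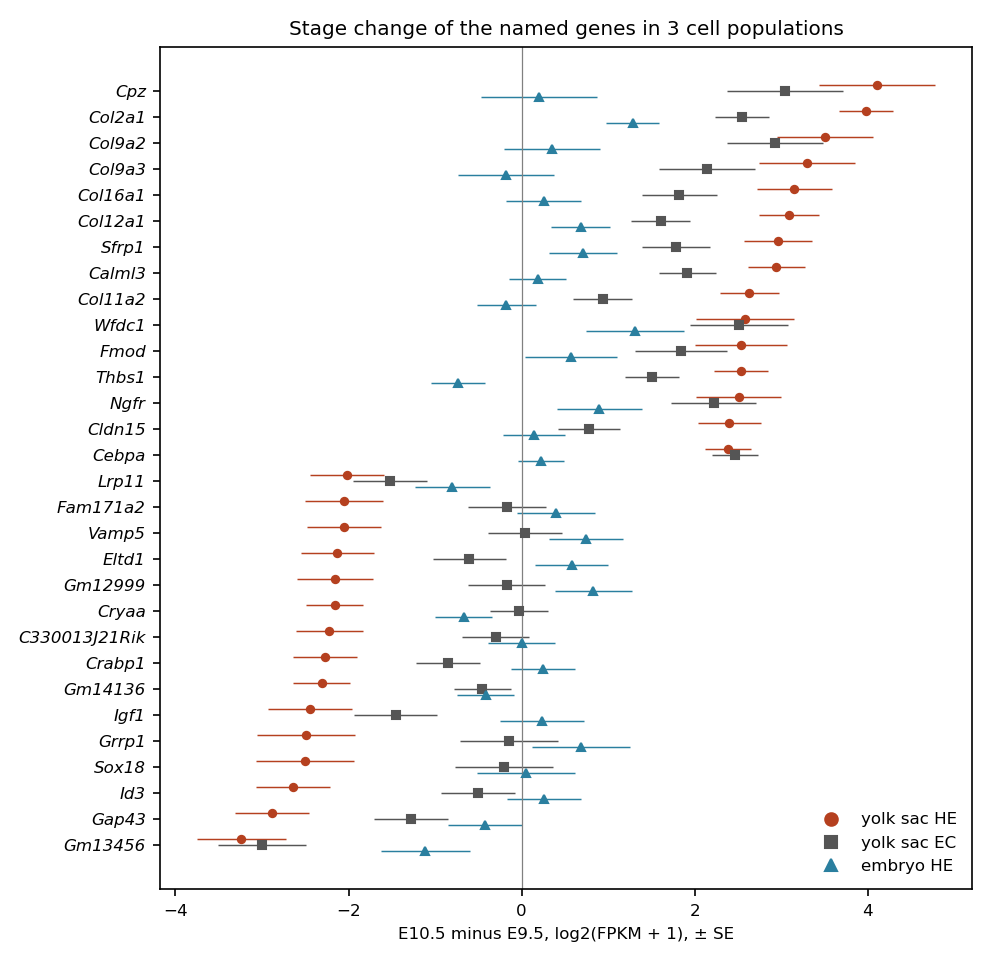
Stage change ± SE, in log2(FPKM + 1), of the 30 named genes in yolk sac HE (circles), yolk sac EC (squares) and embryo HE (triangles). The rises are positive in yolk sac EC as well, with Cebpa at 2.38 in HE and 2.46 in EC, whereas Thbs1 is at −0.73 in embryo HE. The falls lie closer to 0 in yolk sac EC than in HE, between −3.0 for Gm13456 and 0.04 for Vamp5. The genes were chosen by their change in yolk sac HE, which favours smaller changes in the other populations.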

How the data were processed

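RNA-seq libraries of sorted mouse cells were used, 16 in 8 groups of 2, of which 4 are yolk sac HE. The authors deposited FPKM values per gene symbol. The submitters' processing notes name Cufflinks, featureCounts and genome build mm9, with no versions of the tools; the sources used here do not give the aligner, the annotation or the treatment of reads matching several places. FPKM is relative within a library, so a few abundant genes can shift the others.

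Values were transformed as log2(FPKM + 1). limma 3.58.1 in R 4.3.3 was fitted with 1 mean per group to all 16 libraries (intensity trend, residual degrees of freedom 8, prior 3.68) over 13955 genes with at least 1 FPKM in at least 2 libraries, and p-values were Benjamini-Hochberg adjusted over these genes; changes in both directions were tested. The fitting code was checked on simulated data. Named genes are the 15 largest called rises and 15 largest called falls with a mean of at least 5 FPKM at the higher stage, no value of 0 and non-overlapping stages; the 6 largest each way in each difference of stage changes; the 8 largest each way between the E10.5 libraries; and members of 30 gene lists, the sort genes among them. Other named genes were chosen after their values were seen. Members and lists were chosen with earlier results of these data known. Alternatives were another pseudocount, filters, scalings, quality weights, a replicate block and leaving out each library.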

Additional observations from a re-analysis of the deposited data

Results flagged for a closer look

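The stage change of the yolk sac libraries labelled HE differed from that in another population, by the limma test of the difference itself, for the genes below; values are differences of the 2 stage changes on the log2(FPKM + 1) scale. Against yolk sac EC the value of Col1a1 was −11.65 (adjusted p = 0.00254). It rests on the zeros listed for Col1a1 in both E10.5 yolk sac libraries labelled HE and is no bound on a change.

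Against embryo HE, the 6 largest positive differences were those of Thbs1 (3.27), Col11a2 (2.81), Tcea3 (2.79), Calml3 (2.76), Npnt (2.70) and Col2a1 (2.70). Thbs1 was also called in each of the 4 fits that left out 1 of the yolk sac HE libraries. The other 5 were not called without E9.5 yolk sac HE replicate 1 (adjusted p from 0.111 to 0.140). Npnt and Tcea3 were not called without E10.5 yolk sac HE replicate 2 either (both 0.0666).

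The 6 largest negative differences were those of Col1a1 (−10.26), Gm10197 (−6.39), Mylpf (−4.83), Gm22457 (−4.10), Dppa5a (−3.67) and Myog (−3.10). Col1a1, Gm10197 and Mylpf are listed at 0 in at least 1 E10.5 yolk sac HE library. Gm22457, Dppa5a and Myog had at most 0.845 FPKM in yolk sac HE at either stage and were between 8.08 and 22.2 FPKM in embryo HE at E10.5. Their differences thus come mostly from the rise in the embryo. In yolk sac HE Dppa5a also went from 0.845 and 0.656 FPKM at E9.5 to 0 in both E10.5 libraries, which adds to its difference.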

How the results depend on the processing

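The fit called 283 genes between the stages, 1 and 82 in the differences from yolk sac EC and from embryo HE, and 34 members of the gene lists. A pseudocount of 0.1 gave 180, 2 and 22 for the first 3. No filter gave 6 and 195 for the differences, and a filter on the 4 libraries gave 483, 25 for embryo HE and 55 list members. Libraries scaled to equal sums gave 34 for embryo HE. Quality weights gave 55, 38 for embryo HE and 12 list members. The libraries compared alone gave 0, 3, 11 and 0 (1795 at an unadjusted p under 0.05 between the stages). Without the genes set aside limma called 0 genes against EC (1316 unadjusted). With the replicate block 604 genes and 78 list members were called; the numbers are not known to pair libraries. Deviations of same-numbered libraries correlated at 0.121 between the stages of yolk sac HE, and between yolk sac HE and EC at 0.380 at E9.5 and 0.177 at E10.5. The block called 1 gene in the difference from EC and 96 in that from embryo HE.

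Leaving out 1 library gave 27 to 1778 genes between the stages, 1 to 239 against EC, 14 to 1242 against embryo HE and 3 to 120 list members. Beyond the yolk sac HE libraries, the count between the stages was 152 or 151 without either E9.5 embryo EC library, 163 without either E9.5 embryo HE library and 482 without either E9.5 yolk sac EC library. Signs turned in single fits for 6 genes. The range was −1.44 to 0.093 for Slc25a37, −0.80 to 0.15 for Vwf, −0.10 to 0.71 for Tpm2, −0.14 to 1.48 for Foxa2, −0.25 to 1.17 for Fos, and −1.14 to 0.091 for the difference of Kit from EC. None of these 6 was called in the fit to all 16 libraries. The 56 called named genes of the stage change kept their sign in every run. The causes of these shifts were not tested. Read depth is unknown, so no counting error can be given.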

Other observations

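The following called rises and falls lie outside the lists above; they are single genes chosen after their values were seen, and say nothing of how many genes of like function changed. Kng1, which encodes kininogen, was 6.4 and 9.42 FPKM at E9.5 and 24.9 and 43.9 at E10.5 (1.96 ± 0.28, adjusted p = 0.00761). The protease inhibitor genes Serpina1a (3.13 and 2.42, then 12.5 and 12.9; adjusted p = 0.00282) and Serpind1 (4.17 and 4.42, then 13.4 and 26.3; adjusted p = 0.00676) rose as well. So did the plasminogen gene Plg (9.86 and 9.09, then 20.5 and 42.1; adjusted p = 0.0319), the prothrombin gene F2 (12.3 and 11.2, then 21.5 and 30.8; adjusted p = 0.0487) and the tyrosine breakdown gene Hgd (1.64 and 1.25, then 6.35 and 11.6; adjusted p = 0.00384). Each of these 6 was also called higher in yolk sac EC. The summed FPKM of the visceral endoderm list was 10513 and 8905, then 9440.3 and 15270, in yolk sac HE, and its part in these rises was not tested.

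Among the falls, Nop56, a core protein of box C/D snoRNPs, was 163 and 194 FPKM, then 92.1 and 92.3 (−0.94 ± 0.14, adjusted p = 0.00936), and nucleolin, Ncl, 111 and 117, then 61.8 and 57.4 (−0.93 ± 0.17, adjusted p = 0.0189). Rrp9 was 61.8 and 73.7, then 29.3 and 21.4 (−1.40 ± 0.19, adjusted p = 0.00628), and Gar1, of box H/ACA snoRNPs, 148 and 179, then 88.3 and 49.3 (−1.29 ± 0.23, adjusted p = 0.0175). Npm1 (858 and 988, then 591 and 466; adjusted p = 0.0633) and the rRNA methylase gene Fbl (200 and 227, then 152 and 133; adjusted p = 0.0983) missed the threshold. For each of these 6 genes both E10.5 libraries lay below both E9.5 libraries, as they did for 37.1% of the described genes.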
